A study of Mus musculus with 24 samples.

Results

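The transcription factors described here belong to 12 families that direct how a lymphocyte responds to signals and which fate it takes. They are the Stat, Nfat, Nfkb, Irf, Fox, Klf, Smad, Runx, Gata, Ikzf, Tcf and Id genes. A gene was a member if its symbol began with one of these names, with a digit required after Irf, Tcf and Id. Irf4, Ikzf3 and the Irf2bp genes were left out. The rule uses symbols alone, so it also takes in Nfatc2ip, Gatad1 and Foxred2, which share a prefix without belonging to the DNA-binding family, and 3 inhibitors of NF-kB. It found 56 of the 4165 genes and 283 of the 14634 peaks in the authors' deposited table. Its Tcf group joins Tcf4 and Tcf12 by name with Tcf7, which encodes a different kind of factor.

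The table comes from HITS-CLIP of Argonaute 2 (AGO2), in which the protein that holds microRNAs is crosslinked to the RNA it touches, immunoprecipitated, and its bound RNA sequenced. The tested cells were CD4+ T cells of miR-155 KO mice, and the controls were the same cells of WT mice, both of the C57BL/6 strain and taken from spleen and lymph nodes. All cells had been activated in culture for 4 days with CD3 and CD28 antibodies at 1 µg/mL and IL-2 at 20 U/mL, so no group represents resting cells or a sorted helper subset. There were 12 libraries per genotype, each labelled as a biological replicate. Each genotype had 6 libraries with either 3' linker. Libraries of the same replicate number carried different linkers in the 2 genotypes, and the linkers cannot be separated in the pooled reads. The table gives 1 pooled value per genotype and peak, so the values below carry no replicate error and the depth of each library is unknown.

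Reads are the authors' scaled reads with their pseudocount of 1 removed. A log2 change of a peak is log2(KO reads + 1) minus log2(WT reads + 1), which shrinks the change of thinly read peaks. A log2 change of a gene or family is taken on its summed reads without a pseudocount. Negative values are lower in miR-155 KO, and the authors' own ratio runs the other way. A peak was called at a Benjamini-Hochberg adjusted p below 0.05, computed from the authors' p-values of the whole table. More AGO2 reads on a 3' UTR can reflect more of the transcript or more AGO2 per transcript, and these cannot be told apart here. All 6 CD4+ T cell markers looked up had peaks, with 9313 scaled reads in miR-155 KO and 7366 in WT. No peak was listed for 5 B cell, 5 myeloid and 4 CD8 or NK cell markers, although a gene without a 3' UTR peak may still be expressed.

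In T cells these families act in layers. Stat, Nfat and NF-kB proteins wait in the cytoplasm and enter the nucleus when cytokine receptors or the T cell receptor signal. Smad proteins do so downstream of TGF-beta and BMP receptors. Of the Fox and Klf proteins, Foxo1, Foxp1 and Klf2 keep resting lymphocytes quiescent or recirculating, which does not hold for every member of these 2 families. Gata3, Runx, Ikaros, Tcf and Id proteins set lineage and helper fate. MicroRNAs restrain such genes by guiding AGO2 to short matches in the 3' UTR, mostly to bases 2 to 8 of the microRNA, called the seed. miR-155 is induced when lymphocytes are activated.

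The sequences that carry the results follow. The mature microRNAs are from RefSeq (GRCm38.p6), 5′ to 3′, with the seed in capitals. They are miR-155, which the KO cells lack, and those of 6 other families whose matches are printed as sites below.
miR-155-5p: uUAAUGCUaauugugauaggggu
miR-27a-3p: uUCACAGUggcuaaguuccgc
miR-92a-3p: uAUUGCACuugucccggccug
miR-142a-5p: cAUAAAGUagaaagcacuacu
miR-16-5p: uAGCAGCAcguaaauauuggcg
miR-17-5p: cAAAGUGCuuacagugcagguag
miR-23a-3p: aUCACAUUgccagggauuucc

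The windows below are 30 bases from the authors' deposited peak sequences on the message strand, with the seed match in capitals. Positions are GRCm38, from exact matches of the peak to GENCODE M21 transcripts, and each lies in the 3' UTR part of the last exon. The first is 1 of the 2 member peaks with a long miR-155 match, and the second, in Tcf4, is not printed. The next 3 are the miR-27 matches with the most member reads, followed by the top peaks of Klf2, Id2 and Nfkb1, a miR-17 family match in Stat3, and the Stat5b peak with the smallest p-value among member peaks higher in miR-155 KO.
Smad5 peak 5, miR-155, chr13:56738475-56738504, plus strand: acaatgttatgAGCATTAttgacattgaaa
Gata3 peak 1, miR-27, chr2:9858086-9858115, minus strand: ggtctctagtgCTGTGAAaaaaatattgct
Gata3 peak 6, miR-27, chr2:9857619-9857648, minus strand: gcctacatgctCTGTGAAtcagtccctgta
Ikzf1 peak 18, miR-27, chr11:11771636-11771665, plus strand: aggaactatagCTGTGAAaagattttgttc
Klf2 peak 3, miR-25/92, chr8:72321122-72321151, plus strand: ttttcaaaatgGTGCAATAattgacttatt
Id2 peak 3, miR-142-5p, chr12:25094313-25094342, minus strand: acagttggaaggttttCTTTATAtactatt
Nfkb1 peak 3, miR-15/16, chr3:135585067-135585096, minus strand: tgagctttctcTGCTGCTActggatcacat
Stat3 peak 4, miR-17 family, chr11:100888535-100888564, minus strand: tctttgggcaatctggGCACTTTttaaaat
Stat5b peak 1, miR-23, chr11:100782980-100783009, minus strand: acaatactcgtAATGTGAAgtgttaatact

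AGO2 reads over the member 3' UTRs summed to near-equal totals in both genotypes, and 1 peak passed the test. Member peaks held 6697 scaled reads in miR-155 KO and 6703 in WT (log2 change -0.0013), against 374126 and 371088 over all peaks (0.012). They made up 1.79% of the KO reads and 1.81% of the WT reads. The median log2 change of a member peak was -0.16 (quartiles -1.30 and 0.61), and over all peaks it was -0.20 (-1.33 and 0.61). Of the 283 member peaks, 161 had fewer reads in miR-155 KO and 120 had more, against 8255 and 6338 of all 14634 peaks. Among the 150 with at least 20 scaled reads over both genotypes, 69 were higher in miR-155 KO, 46% against 50.1% of all such peaks. KO reads alone were listed at 0 for 43 member peaks (15.2%; 16.3% of all peaks) and WT reads alone for 14 (4.95%; 7.59% of all).

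The members were well covered compared with the rest of the table. A member gene had a median of 3 peaks, against 2 over all genes, and a member peak a median of 22.3 scaled reads, against 17.0. Of the 56 genes 25 held at least 100 scaled reads (44.6%; 32.0% of all genes). Reads were concentrated in few of them. Ikzf1, Id2 and Gata3 together held 32.1% of the member reads and the 10 most-read genes 63.9%. By GENCODE, 278 of the 283 peaks lay in annotated 3' UTRs, 3 peaks of Nfatc3 overlapped the coding range of a transcript, and 2 peaks could not be placed.

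**Figure D1:**
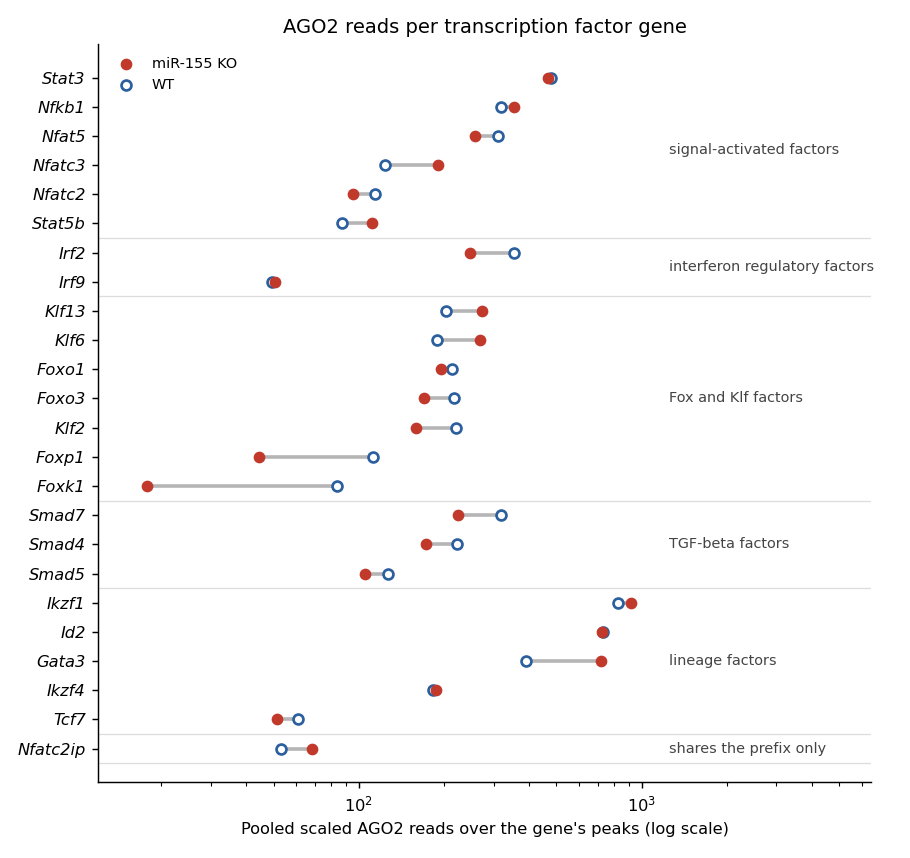
Scaled AGO2 reads, summed over each gene's peaks on a log axis, in miR-155 KO (filled red) and WT (open blue) for 24 of the 25 member genes with at least 100 reads, grouped by role. Most pairs lie close together. Foxk1 (17.9 in miR-155 KO, 83.9 in WT), Foxp1 (44.5 and 112) and Gata3 (719 and 391) are farthest apart.

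Among the peaks called, Tcf4 was the single member. Tcf4 encodes an E protein, a basic helix-loop-helix factor of lymphoid development. Its peak 1 lies 1475 to 1510 nt into the 3' UTR, in the last of 20 exons on chromosome 18, and held 0 scaled reads in miR-155 KO and 27.0 in WT. The log2 change was -4.81, a value set by the pseudocount, with an adjusted p of 0.00208 from the authors' p-values. The only other Tcf4 peak held 0 reads in miR-155 KO and 3.60 in WT. The gene was therefore listed at 0 in miR-155 KO over both its peaks, and its transcript level was not measured. Members had 1 of 283 peaks called lower (0.353%), against 0.574% of all peaks.

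No member peak was called higher in miR-155 KO by the Benjamini-Hochberg adjusted p-values, against 0.0273% of all peaks. At an unadjusted p below 0.05, 4 member peaks were lower and 4 were higher. These counts are 1.41% each, against backgrounds of 2.72% for lower and 1.48% for higher peaks. The lower ones included peaks in Klf13 and Nfat5 besides Tcf4 peak 1, and the higher ones were in Stat5b, Gata3, Klf6 and Klf7. Stat5b peak 1 held 55.6 reads in miR-155 KO and 29.6 in WT, with an adjusted p of 0.0953. Klf13 peak 6 was listed at 0 in miR-155 KO and had 13.4 reads in WT (adjusted p = 0.377). Gata3 peak 11 had 32.0 scaled reads in miR-155 KO and 10.1 in WT (adjusted p = 0.832). Nfat5 peak 8, Klf6 peak 4 and Klf7 peak 3 had adjusted p-values of 1.00.

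A large difference often had a large p-value. Of the 150 member peaks with at least 20 reads, 24 were at least 2-fold lower in miR-155 KO (16%; background 14%) and 19 at least 2-fold higher (12.7%; background 10.1%). An authors' p below 0.05 was given for 2 of those 24 and 3 of those 19. Foxk1 peak 1, with 5.23 reads in miR-155 KO and 69.3 in WT, had p = 0.168. Klf6 peak 2, with 22.3 reads in miR-155 KO and 0 in WT, had p = 0.731. What spread between libraries these p-values reflect is not known, so the differences described below are differences between pooled values.

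**Figure D2:**
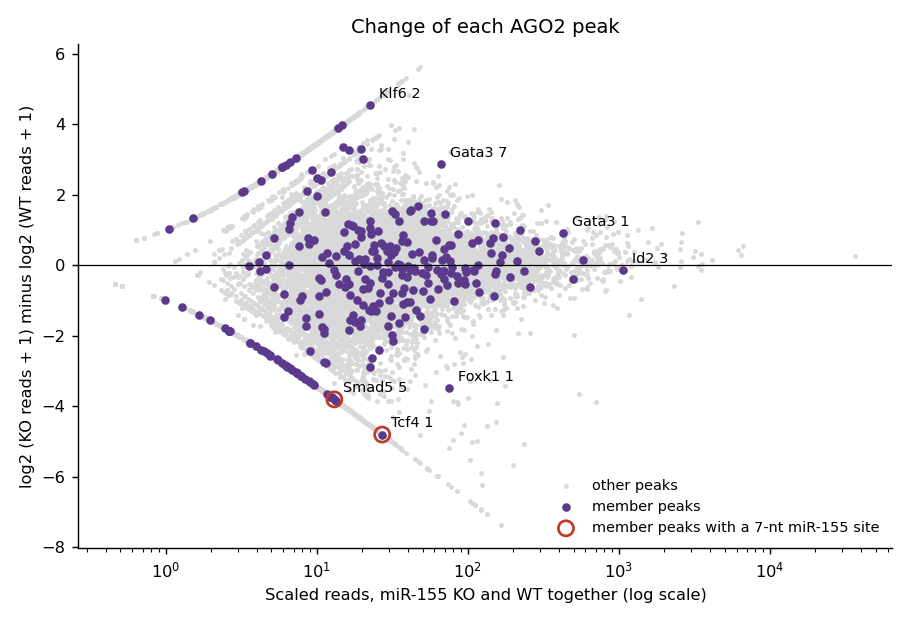
Log2 change (miR-155 KO over WT, pseudocount 1) of each peak against its scaled reads over both genotypes on a log axis, with member peaks in purple and other peaks in grey. Most well-read member peaks spread around 0. The curved edges are peaks listed at 0 in a genotype, and both member peaks with a 7-nt miR-155 match (red rings) lie on the lower edge, listed at 0 in miR-155 KO.

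Sites for miR-155 itself were few. The motifs searched on the message strand were the 8mer AGCATTAA, the 7mer-m8 AGCATTA, the 7mer-A1 GCATTAA and the 6mer GCATTA, and a peak was counted once, under the longest of them. A 7-nt or 8-nt match was in 2 of the 283 member peaks (0.707%) and in 265 of all peaks (1.81%). Both were 7mer-m8 matches, and both peaks were listed at 0 in miR-155 KO. Besides Tcf4 peak 1, the match was in peak 5 of Smad5, a Smad activated by BMP receptors. Smad5 peak 5 held 0 reads in miR-155 KO and 13.0 in WT (log2 change -3.81, p = 0.0746, adjusted p = 1.00). Of the other Smad5 peaks, peaks 6 and 7 were also listed at 0 in miR-155 KO, with 2.64 and 3.62 reads in WT, and peak 9 was listed at 0 in WT, with 13.8 reads in miR-155 KO. The most-read one, peak 3, held 45.1 reads in miR-155 KO and 52.2 in WT, and the gene's summed reads were 105 and 127.

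The 2 member site peaks had a median log2 change of -4.31. The 263 site peaks of all other genes had -3.12, of which 153 were listed at 0 in miR-155 KO and 58 were called lower (22.1%). No member peak held a 6mer as its longest match. Weaker matches were present in 8 member peaks. An offset 6mer (AGCATT) was in Ikzf4 peak 7, Smad3 peak 1 and Smad5 peak 2, with a median log2 change of 0.12. A 6mer-A1 (CATTAA) was in peaks of Ikzf1, Klf6, Nfat5, Nfkbid and Smad5, with a median of -0.21. Of these, Ikzf1 peak 20 had 3.34 reads in miR-155 KO and 22.3 in WT, with an adjusted p of 1.00.

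The signal-activated factors, the Stat, Nfat and Nfkb1 genes, summed to 1702 scaled reads in miR-155 KO and 1736 in WT over 79 peaks. Stat3, which transmits IL-6 and IL-21 signals, was the most-read Stat gene, with 465 reads in miR-155 KO and 476 in WT over 14 peaks. Its reads were spread out, and the most-read peak held 22.4% of them. Stat5b, which acts downstream of IL-2, had 111 reads in miR-155 KO and 87.0 in WT. The gap came from peak 1, with 55.6 reads in miR-155 KO and 29.6 in WT, 43.1% of the gene's reads. Of the 5 Stat5b peaks with at least 10 reads, 4 were higher in miR-155 KO. The other one, peak 3, held 3.72 reads in miR-155 KO and 12.8 in WT, and the smaller peak 6 held 0 and 9.39. Peak 1 had the smallest p of the Stat5b peaks. It starts 4 nt into the 3' UTR and carries the 8mer match to miR-23 printed above. Stat5a, Stat2, Stat4 and Stat6 each held under 50 reads over both genotypes.

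Nfat factors are released by calcineurin when calcium rises, except Nfat5, which responds to osmotic stress. Nfat5 had 18 peaks, with 258 reads in miR-155 KO and 310 in WT. Of its 14 peaks with at least 10 reads, 4 were higher in miR-155 KO. Nfatc3 had 190 reads in miR-155 KO and 124 in WT, a log2 change of 0.61. That value came from peak 2, with 148 reads in miR-155 KO and 73.1 in WT (authors' p = 0.0922, adjusted p = 1.00). Without that peak the Nfatc3 change was -0.28. Peak 2 is among the 3 Nfatc3 peaks that GENCODE places in the coding range of a transcript. Nfatc2 had 95.5 reads in miR-155 KO and 114 in WT, and Nfatc1 25.3 and 38.7.

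Nfkb1, the gene of the p105 precursor of the NF-kB p50 subunit, had 354 reads in miR-155 KO and 317 in WT over 9 peaks. Its peak 3, with an 8mer match to miR-15/16, held 168 reads in miR-155 KO and 128 in WT, 44.1% of the gene's reads. The inhibitors that retain NF-kB in the cytoplasm had fewer reads. Nfkbie had 40.2 reads in miR-155 KO and 54.1 in WT at its single peak, and Nfkbia had 29.9 and 46.6 over 4 peaks. Nfkbid, a nuclear member of this group, had 3.53 and 1.64. The 3 inhibitor genes held no 7-nt or 8-nt match to any of the families searched.

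Interferon regulatory factors had lower summed reads in miR-155 KO, 325 against 418 in WT, with no peak below p = 0.05. Irf2, which competes with the activator Irf1 for its sites, accounted for the gap, with 247 reads in miR-155 KO and 353 in WT. Its log2 change was -0.51, and 1 of its 6 peaks was higher in miR-155 KO. The most-read Irf2 peak, peak 5, held 101 reads in miR-155 KO and 155 in WT. Irf9, the DNA-binding partner of Stat2 in interferon responses, had 50.7 reads in miR-155 KO and 49.4 in WT. Irf8 had 1 peak, with 2.24 reads in miR-155 KO and 5.43 in WT.

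The Fox genes had a lower summed ratio than any other symbol group except Tcf, which joins the E protein genes Tcf4 and Tcf12 with Tcf7. Both E protein genes were listed at 0 in miR-155 KO, and Tcf7 alone had a log2 change of -0.25. The 44 Fox peaks in 11 genes held 493 reads in miR-155 KO and 683 in WT (log2 change -0.47). Of these peaks 30 were lower in miR-155 KO and 13 higher, against 8255 and 6338 of all 14634 peaks. KO reads alone were listed at 0 for 12 (27.3%; 16.3% of all peaks), WT reads alone for 1 (2.27%; 7.59% of all). Fox peaks were also thinly read, with a median of 12.9 scaled reads against 17.0 over all peaks. None had a p below 0.05 in the authors' table, and the difference between the family and the other genes was not tested. Foxp1, a guardian of T cell quiescence, had 44.5 reads in miR-155 KO and 112 in WT over 7 peaks (log2 change -1.33). Its most-read peak 3 held 26.3 reads in miR-155 KO and 54.7 in WT, and each of its 4 peaks with at least 10 reads was lower in miR-155 KO. Peak 6, with 6.12 reads in miR-155 KO and 1.49 in WT, ran the other way. Foxp1 ranked 39th from the lowest of the 1332 genes with at least 100 reads.

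Foxk1, a repressor of autophagy genes, had 17.9 reads in miR-155 KO and 83.9 in WT (log2 change -2.23) and ranked 14th from the lowest. This rested on peak 1. Without it the Foxk1 change was -0.21, from a peak 2 of 12.6 reads in miR-155 KO and 14.6 in WT. Foxo1, which keeps resting T cells alive and recirculating, had 196 reads in miR-155 KO and 214 in WT over 17 peaks. Its peaks differed in direction. Peak 4 had 42.1 reads in miR-155 KO and 17.0 in WT, while peak 9 had 10.9 and 40.5. Foxo3 had 170 reads in miR-155 KO and 217 in WT. Its 3 peaks with at least 10 reads were lower in miR-155 KO by little, with log2 changes of -0.27, -0.16 and -0.40. The other 3 of its 6 peaks held under 10 reads each and were listed at 0 in miR-155 KO. None of the Fox peaks held a miR-155 match.

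The Klf genes summed to 807 reads in miR-155 KO and 716 in WT, with members on both sides. Klf2, which drives the homing receptor gene S1pr1, had 159 reads in miR-155 KO and 221 in WT (log2 change -0.47). Its most-read peak, peak 3, carries the 8mer match to miR-25/92 and held 52.1 reads in miR-155 KO and 96.6 in WT. Klf13, a regulator of Ccl5 in late activated T cells, had 274 reads in miR-155 KO and 203 in WT (log2 change 0.43). Its peak 8, with a 7mer-A1 match to miR-142-3p, held 171 reads in miR-155 KO and 106.3 in WT. Peak 8 held 58.2% of the Klf13 reads and accounted for most of the gap between the genotypes. Of the 10 Klf13 peaks, 4 were listed at 0 in miR-155 KO and 0 were listed at 0 in WT. Klf6 had 268 reads in miR-155 KO and 189 in WT over 15 peaks (log2 change 0.50), and 9 of its 13 peaks with at least 10 reads were higher in miR-155 KO. Its reads were spread, with 18.9% in the most-read peak.

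**Figure D3:**
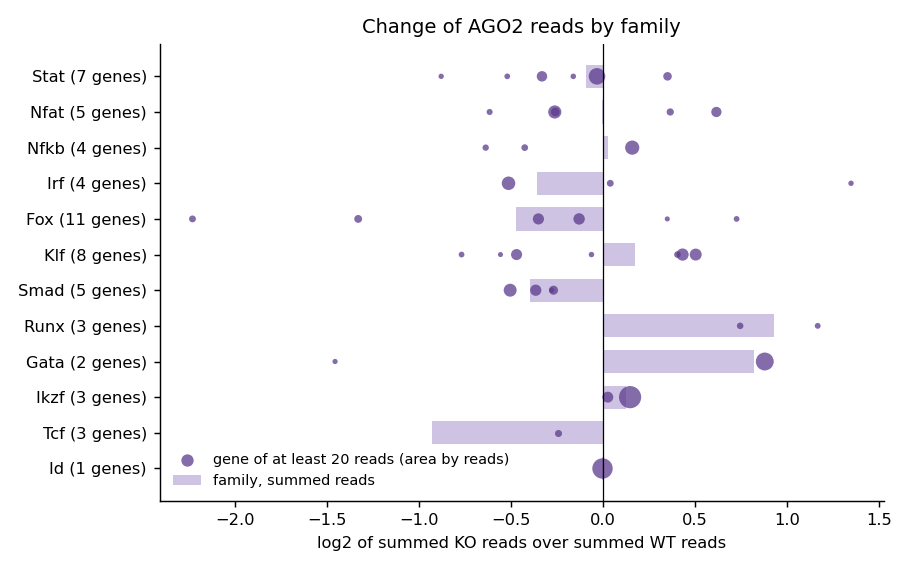
Log2 of summed miR-155 KO reads over summed WT reads for each family (bars) and for each gene with at least 20 scaled reads and reads in both genotypes (points, area growing with reads). The Fox, Smad, Irf and Tcf bars lie below 0 and the Runx and Gata bars above it. The Tcf bar joins Tcf4 and Tcf12, both listed at 0 in miR-155 KO, with Tcf7 at -0.25. Genes of the Fox family range from -2.23 for Foxk1 to 0.72 for Foxj3.

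The Smad genes were lower in miR-155 KO in sum, with 522 reads against 688 in WT over 25 peaks (log2 change -0.40), and no peak below p = 0.05. Smad7, the inhibitory Smad that blocks TGF-beta receptor signalling, had 225 reads in miR-155 KO and 319 in WT. A single peak, peak 3, held 91.5% of them, 216 in miR-155 KO and 283 in WT, and had a 7mer-m8 match to miR-25/92. All 4 Smad7 peaks were lower in miR-155 KO. Smad4, the common partner of the other Smads, had 173 reads in miR-155 KO and 223 in WT over 9 peaks, of which peak 4 held 83.4 and 105. Smad2 and Smad3, the receptor-activated Smads of the TGF-beta pathway, had 12.6 and 5.78 reads in miR-155 KO and 15.3 and 2.97 in WT.

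The lineage factors held the most reads of any role group, 2699 in miR-155 KO and 2286 in WT, and Gata3 accounted for most of the gap. Gata3, the master factor of Th2 cells, had 719 reads in miR-155 KO and 391 in WT over 11 peaks (log2 change 0.88). It ranked 45th from the highest of the 1332 genes with at least 100 reads. Of its 10 peaks with at least 10 reads, 8 were higher in miR-155 KO. Peak 1 held 278 reads in miR-155 KO and 148 in WT (authors' p = 0.0864), and without it the change was 0.86. Peak 6 held 105 and 45.5, and peak 7 held 58.8 and 7.24 (authors' p = 0.0565). The excess was thus along much of the 3' UTR, but none of these peaks passed the adjusted threshold. Whether Gata3 mRNA differed between the cultures was not measured here.

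At least 1.5-fold differences in summed reads occurred in 4 of the 25 member genes with at least 100 reads. Foxk1 and Foxp1 were lower in miR-155 KO, 2 of 25 (8%; background 15.3%). Gata3 and Nfatc3 were higher, 2 of 25 (8%; background 10.1%). The members therefore had no excess of such genes in either direction. The median change of the 25 genes was -0.13, against -0.025 for all genes with as many reads.

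Ikzf1, which encodes Ikaros, was the most-read member gene, with 915 reads in miR-155 KO and 827 in WT over 28 peaks. Peak 18, with the miR-27 match shown above, held 305 reads in miR-155 KO and 276 in WT, 33.4% of the gene's reads. Of the 25 Ikzf1 peaks with at least 10 reads, 13 were higher in miR-155 KO. Ikzf4, the gene of Eos, a partner of Foxp3 in regulatory T cells, had 187 reads in miR-155 KO and 184 in WT. Id2, which binds E proteins and keeps them off DNA, had 725 reads in miR-155 KO and 730 in WT. Its peak 3 was the most-read member peak, with 506 reads in miR-155 KO and 560 in WT, 73.2% of the gene's reads. The next Id2 peak in order of reads, peak 8, held 109 reads in miR-155 KO and 61.8 in WT.

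Runx1 and Runx3, factors of T cell development and of the CD8 and Th1 programs, had few reads. Runx3 had 53.5 reads in miR-155 KO and 31.9 in WT, and Runx1 had 37.7 and 16.8. With Runx2, at 1.5 reads in miR-155 KO and 0 in WT, the family had a log2 change of 0.93. Of its 8 peaks 6 were higher in miR-155 KO, 2 of them thinly read and listed at 0 in WT. No Runx peak had an authors' p below 0.05. Tcf7, the gene of TCF-1 of naive and memory T cells, had 51.3 reads in miR-155 KO and 60.9 in WT, and its main peaks ran in opposite directions. Peak 1 held 13.0 reads in miR-155 KO and 28.2 in WT, and peak 2 held 38.3 and 23.1. The E protein gene Tcf12 had 1 peak, with 0 reads in miR-155 KO and 6.37 in WT. Of the symbols that only share a prefix, Nfatc2ip had 68.6 reads in miR-155 KO and 53.3 in WT, and Gatad1 had 7.53 and 20.7.

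**Figure D4:**
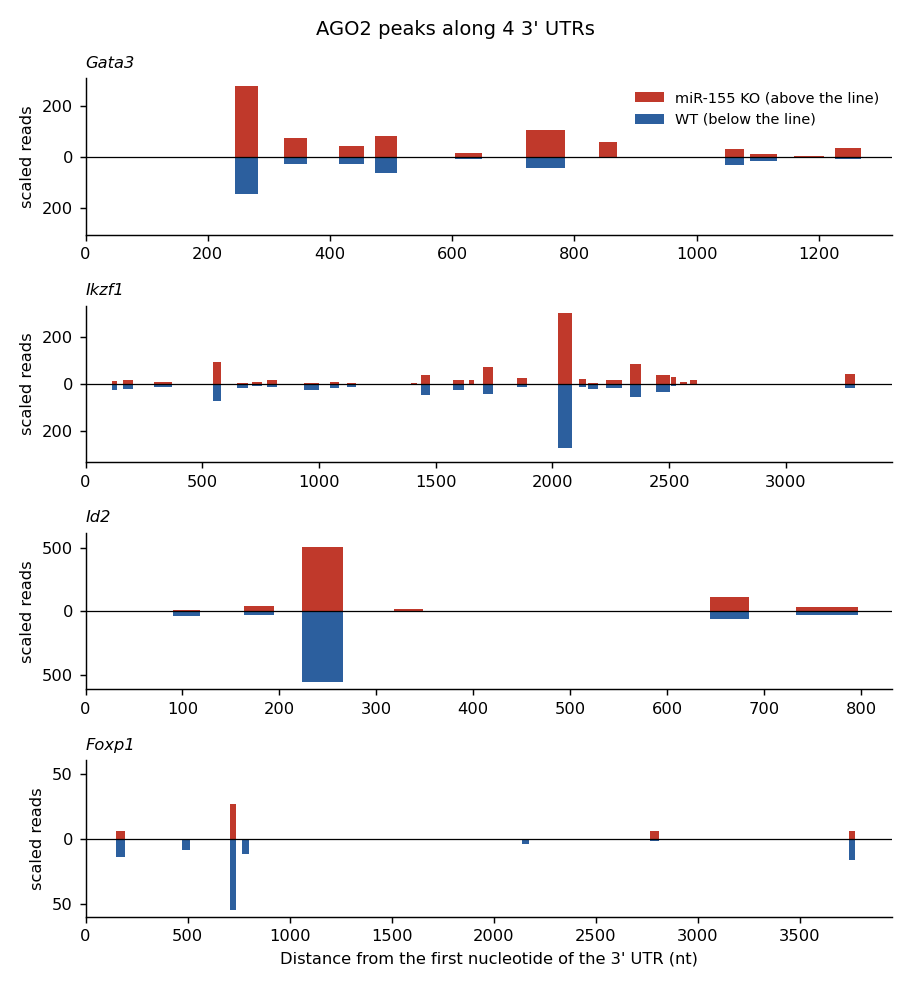
Scaled reads of each AGO2 peak in miR-155 KO (red, above the line) and WT (blue, below it) along the 3' UTRs of Gata3, Ikzf1, Id2 and Foxp1, with bar width equal to peak length. Gata3 has taller KO bars at most peaks. The most-read peaks of Ikzf1 (305 KO and 276 WT reads) and Id2 (506 and 560) have bars of similar height, while several of their smaller peaks differ, and Foxp1 has shorter KO bars at most peaks, 26.3 KO reads against 54.7 WT reads at peak 3.

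Matches to other microRNAs marked many of the member peaks. For 29 further families the message strand was searched for the complement of bases 2 to 8 (7mer-m8), the same followed by A (8mer), or its last 6 letters followed by A (7mer-A1). The 7mer-m8 was ACTGTGA for miR-27, GTGCAAT for miR-25/92, TGCTGCT for miR-15/16, ACTTTAT for miR-142-5p and ACACTAC for miR-142-3p. It was GCACTTT for the miR-17 family, TTTGCAC for miR-19, AATGTGA for miR-23 and ATTCTTT for miR-186. Such a match was in 103 member peaks (36.4%) and in 42.8% of all peaks. These peaks held 54.0% of the member reads and 52.0% of all reads. A match shows the letters only and does not show which microRNA brought AGO2 there.

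miR-27 matches, which stood in peaks of Ikzf1 and Gata3 among other genes, were in 11 member peaks (3.89%; 3.59% of all peaks), which held 10.8% of the member reads, while miR-27 peaks held 5.41% of all reads. Summed over the 11 peaks, reads were 862 in miR-155 KO and 588 in WT. Much of this was in 2 genes. Ikzf1 peak 18 held 305 reads in miR-155 KO and 276 in WT, Gata3 peak 1 held 278 and 148, and Gata3 peak 6 held 105 and 45.5. Of the 9 miR-27 member peaks with at least 20 reads, 7 were higher in miR-155 KO, and 54.3% of the 278 such peaks in the whole table were. These 9 peaks are in 6 genes, with 3 in Ikzf1 and 2 in Gata3, so they are not independent, and the Gata3 peaks without a miR-27 match were mostly higher too. In Foxo1, Irf9 and Runx1 the miR-27 match contains the 7mer-A1 of miR-128, which has the same letters, and in Ikzf1 peak 28 the 8mers of both overlap.

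Most member peaks with miR-25/92 and miR-17 family matches were lower in miR-155 KO, several of them by little. For miR-25/92, 1 of 7 member peaks with at least 20 reads was higher in miR-155 KO, and 46.3% of the 255 in the whole table were. The 7 were in Klf2, Smad7, Ikzf4, Klf6, Nfat5, Nfatc1 and Nfatc2ip, and the higher one was Nfat5 peak 10, with 65.1 reads in miR-155 KO and 41.7 in WT. For the miR-17 family, 1 of 7 was higher, and 43.3% of the 330 in the whole table were. They included Stat3 peak 4, which held 43.6 reads in miR-155 KO and 74.2 in WT. Stat3 peak 5 had a log2 change of -0.02 and Smad5 peak 3 of -0.21, while Ikzf4 peak 2 was at -1.73. For miR-19, 4 of 5 were higher, and 47.3% of the 262 in the whole table were. Among them was Klf13 peak 3 with 42.2 reads in miR-155 KO and 14.5 in WT. In Klf13, Smad5 and Runx3 the miR-19 match overlaps a match to the miR-130 family. The families named here are among the most uneven of those searched. Others were more even, such as miR-15/16 with 2 of 4 higher and miR-186 with 3 of 5. These are counts of few peaks, given without a test. The miR-142-5p and miR-186 matches held 9.09% and 10.7% of the member reads, which was mainly Id2 peak 3, where both overlap.

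**Figure D5:**
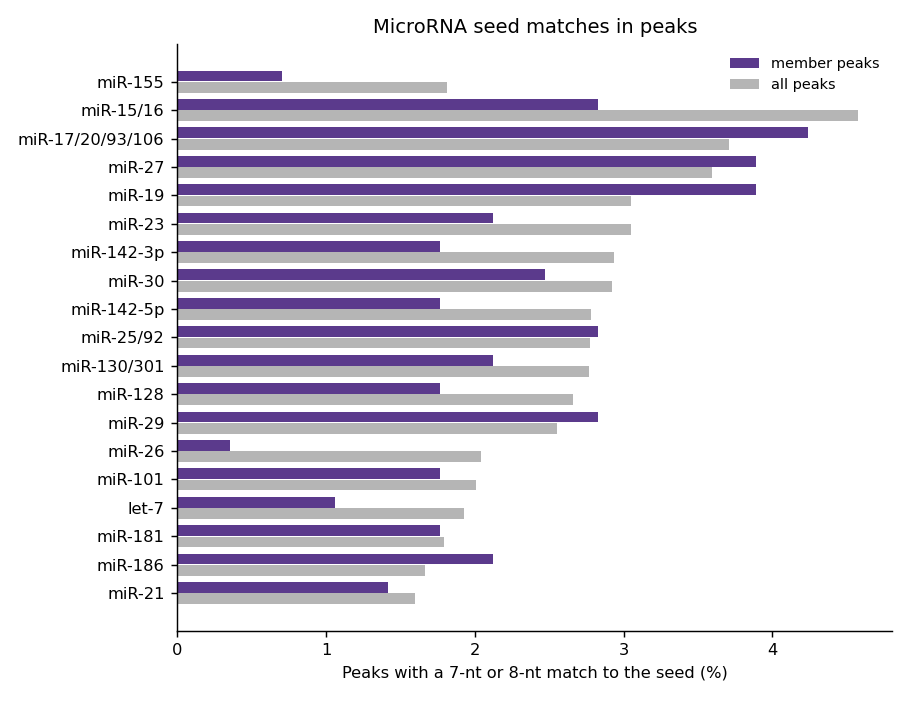
Share of peaks with a 7-nt or 8-nt seed match, in percent, for member peaks (purple) and all peaks (grey), for miR-155 and the 18 other families most frequent over all peaks. miR-155 matches were in 0.707% of member peaks and 1.81% of all peaks. miR-27 matches were at similar shares, 3.89% and 3.59%.

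Called peaks were also found in transcription factors outside these families. Of 61 other lymphocyte factors listed, 49 had peaks, and 6 of their 374 peaks in 6 genes were called lower and 0 higher by the same Benjamini-Hochberg adjusted p-values (backgrounds 0.574% and 0.0273%). At an unadjusted p below 0.05, 11 were lower and 9 higher (backgrounds 2.72% and 1.48%). The called ones were in Ahr, Bach1, Cebpb, Fosl2, Hif1a and Maf. Peak 7 of Fosl2, an AP-1 subunit, had 0 reads in miR-155 KO and 166 in WT (adjusted p = 1.35e-19). A 7-nt or 8-nt miR-155 match was in 12 of the 374 peaks (3.21%; 1.81% of all peaks). The left-out family member Irf4 had 1849 reads in miR-155 KO and 1232 in WT over 34 peaks, with no called peak. The list was chosen with earlier results of these data known, so its count of called peaks cannot serve as a contrast to the member families. Whether the list and the member families differ in their share of called peaks was not tested.

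Regulators and cofactors of the member families were looked up as well. The list held 82 genes of the Stat, Nfat, NF-kB, Smad, Foxo, Runx and Tcf pathways, among them receptors, kinases, phosphatases, ubiquitin ligases, inhibitors and cofactors. Peaks were found in 53 of them, 293 in all, with a median log2 change of -0.15. Of these, 0 peaks were called in either direction by the Benjamini-Hochberg adjusted p-values (backgrounds 0.574% lower and 0.0273% higher). Called peaks were rare in the whole table, so a count of 0 sets the list apart from it in neither direction. At an unadjusted p below 0.05, 10 were lower and 3 higher (backgrounds 2.72% and 1.48%). A 7-nt or 8-nt miR-155 match was in 7 of the 293 (2.39%; 1.81% of all peaks). The JAK-STAT regulators had 1639 reads in miR-155 KO and 1283 in WT over 72 peaks, of which Jak2 held 441 and 291. Sums for the calcineurin-NFAT regulators were 980 in miR-155 KO and 1088 in WT over 40 peaks. They were 947 and 949 for NF-kB, 2350 and 2241 for TGF-beta and Smad, and 318 and 373 for Foxo. For Runx they were 133 and 185, and for Tcf 551 and 521.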

How the data were processed

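The authors' deposited table holds, per the file headers, log2 values of pooled reads per genotype, their log2 ratio and a p-value for differential binding. Bowtie 0.12.7 and the mm9 build were used, per the submitters' processing notes. The peak caller, the scaling, the pooling of replicates, any collapsing of duplicates and the authors' test are steps not given in the sources. The deposited log2 values were read as log2(scaled reads + 1), and the ratio equalled the column difference to within 6e-05. Planned fits over libraries could not be made on pooled values.

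Each deposited sequence was the peak plus 6 nt on both sides. The adjustment and the position given to planted sites were checked on simulated data. The pseudocount, minimum reads, threshold and site definition were varied. The rule for named genes took those with a called peak, the 15 most-read, the 2 most-read of each family, those with a miR-155 site peak of 20 reads, and the 5 highest and 5 lowest changes among genes of 100 reads. Other genes and peaks named were chosen after their values were seen. Members and lists were chosen with earlier results of these data known. No replicate spread between cultures can be given. An entry for miR-150 was not used. A few member genes are not reported here. Python 3.11.15, NumPy 2.4.6, pandas 2.3.3 and matplotlib 3.10.9 were used.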

Additional observations from a re-analysis of the deposited data

How the results depend on the processing

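The count of member peaks called lower in miR-155 KO was 1. It was 2 at an adjusted p below 0.1, 2 when adjusted over peaks with at least 10 scaled reads, and 0 when adjusted over peaks with reads in both genotypes, since Tcf4 peak 1 is listed at 0 in miR-155 KO and drops out. The count called higher was 0 and became 1 at an adjusted p below 0.1. The median log2 change of member peaks was -0.16. It was -0.064 among peaks with at least 20 scaled reads, -0.055 with no pseudocount among peaks with reads in both genotypes, and 0.032 after subtracting the median of all peaks. The median of the miR-155 site peaks was -4.31. It was -5.27 with a pseudocount of 0.5 and -4.81 with at least 20 scaled reads, where Tcf4 peak 1 alone is left. It had no value without a pseudocount, since both peaks are listed at 0 in miR-155 KO. The summed member change lay between -0.078 and 0.041 under each alternative, and the 2 site peaks were the same under each site definition tried. Among alternatives chosen after seeing the data, leaving out the most-read peak turned Nfatc3 to -0.28 and moved Foxk1 to -0.21, while Gata3 (0.86), Klf6 (0.75) and Foxp1 (-1.66) kept their direction. No paired analysis was possible because the deposited table pools the libraries of each genotype, and for the same reason leaving out replicates was not run.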
